A study of Mus musculus with 2 samples.

Results

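Sd9 is 1 of the 13 clusters into which the authors' cell table divides the germ cells of mouse testes. The cluster is labelled here by Prm3, which was highest in it but within 1.5-fold of Sd8. Its members are the cells with the entry Sd9 in that table, taken as given and with WT and KO kept apart. They are 421 of the 5170 WT cells and 435 of the 7238 KO cells, 856 of 12408 in all. The scRNA-seq data come from adult mice of the strain C57BL/6, given as C57BL/6N in the methods of the study. WT mice were compared with mice in which every exon of the X-linked gene Tex13a was deleted by CRISPR/Cas9, and no other allele or treatment is named. Each genotype is 1 library from testes of 3 mice, pooled before cell capture, so that the mice cannot be told apart and every difference between genotypes is a difference between 2 libraries. Whole testes were digested with collagenase I and no cells were sorted.

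Late spermatids are the last germ cells of the testis. In them the histones of the nucleus are exchanged first for transition proteins (Tnp1, Tnp2) and then for protamines (Prm1, Prm2), which pack the DNA of the sperm head. Transcription stops as the chromatin condenses, so that the mRNAs seen at this stage were made earlier, are stored and are lost at different times. The gene Prm3 lies between Prm2 and Tnp2, and despite its name its product is an acidic protein of the cytoplasm.

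The levels below are UMIs (transcript molecules counted once each) summed over the cells of a library and cluster and given per 1000000 UMIs of that sum (CPM). A range in brackets is an exact 95% interval that covers counting error only. Cells are not replicates, so no p-value or standard error is given, and a gene is counted as higher or lower when it is past 1.5-fold with at least 100 UMIs in the pair of sums. Since the clusters were built from these same genes, differences between clusters are a description of Sd9.

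The protamine genes are the setting of the Prm3 label, and 4 of the 5 genes described first lie together. In GRCm38, Prm1, Prm2, Prm3 and Tnp2 follow each other on the minus strand of chromosome 16 within 17904 bases, and Tnp1 lies on chromosome 1. The promoters of Prm3, Prm1 and Prm2 are shown because these neighbours took 3 different courses through Sd9. The 250 bases before each start site are printed 5′ to 3′ on the minus strand, from RefSeq (GRCm38.p6), and all 5 genes were matched there by symbol. Capitals mark TGANNTCA, a relaxed form of the CRE site TGACGTCA to which factors of the CREM family bind (N is any base, and both forms read the same on both strands).
Prm3, chr16:10790915-10791164: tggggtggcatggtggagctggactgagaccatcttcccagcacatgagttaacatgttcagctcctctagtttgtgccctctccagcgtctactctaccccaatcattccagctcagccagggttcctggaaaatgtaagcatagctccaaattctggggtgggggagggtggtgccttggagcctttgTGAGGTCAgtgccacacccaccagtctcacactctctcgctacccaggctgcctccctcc
Prm1, chr16:10796824-10797073: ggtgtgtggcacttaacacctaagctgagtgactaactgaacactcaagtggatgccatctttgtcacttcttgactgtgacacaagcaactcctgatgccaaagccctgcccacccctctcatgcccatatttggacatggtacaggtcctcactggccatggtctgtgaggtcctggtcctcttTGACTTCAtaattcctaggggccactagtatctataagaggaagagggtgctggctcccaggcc
Prm2, chr16:10792106-10792355: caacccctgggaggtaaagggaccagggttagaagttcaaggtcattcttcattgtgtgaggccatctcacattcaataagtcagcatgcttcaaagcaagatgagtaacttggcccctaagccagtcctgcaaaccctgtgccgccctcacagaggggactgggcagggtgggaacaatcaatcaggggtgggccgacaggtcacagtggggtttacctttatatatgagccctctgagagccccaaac
The relaxed site was found 60 bases before the start of Prm3 and 64 bases before that of Prm1. It was also found 94 bases before the start of Tnp1, as tgatgtca, and was not found in the windows of Prm2 and Tnp2. Among 32851 RefSeq promoters, with windows of 300 bases that end 50 bases after the start, 14.1% hold it. The full site TGACGTCA is in none of the 5 windows and in 1.79% of all promoters. TATAAA, searched on both strands, was found in the window of Prm2, 31 bases before its start on the opposite strand, and in 13.6% of all promoters. These letters are a description of the windows, and the counts of this study do not test them.

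Sd9 made up 8.14% of the cells of the WT library (7.41 to 8.92) and 6.01% of the KO library (5.47 to 6.58). Its cells had a median of 4994 UMIs and 1155 genes in WT and 4978 UMIs and 1203 genes in KO, and its sums held 2620363 and 2551778 UMIs. At an equal depth of 3000 UMIs the median number of genes per cell was 858 in WT and 874 in KO, below the 921 and 935 of Sd8 and above the 785 and 806.5 of Sd10, and no Sd9 cell was shallower than that. The 10 most abundant genes took 30.6% of the UMIs of Sd9 in WT and 29.9% in KO. The libraries shared 0 cell barcodes. The median share of mitochondrial UMIs was 0.408% in WT and 0.637% in KO in Sd9, and it was higher in KO in every one of the 13 clusters. The deleted gene cannot check the labels here, because its symbol may stand for 7 rows of the matrix. Of these, 1 row had no UMI in KO and 2295 in WT, and as it would be picked by that zero, no Tex13a level is given.

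Prm3 was highest in Sd9 among all 13 clusters in both libraries, but by a small margin over Sd8. It stood at 6280 CPM in WT (6185 to 6377) and 6344 CPM in KO (6247 to 6443). In Sd8 it was at 5607 and 5783 CPM, and in Sd10 at 3143 and 2940 CPM. The log2 ratio of Sd9 to Sd8 was thus 0.16 in WT and 0.13 in KO, within the 1.5-fold limit, and that of Sd9 to Sd10 was 1.0 and 1.11. The level climbed over the earlier clusters, from 3472 and 3606 CPM in Sd5 to 5043 and 5195 CPM in Sd7. Counted per cell, Sd9 was again the highest of the 13 clusters, with 39.1 Prm3 UMIs per Sd9 cell in WT and 37.2 in KO against 34.8 and 35.4 in Sd8 and 21.4 and 18.6 in Sd10. A Prm3 UMI was found in 420 of 421 WT cells of Sd9 and in all 435 KO cells. The same held in 51.6% and 53.6% of the cells of the spermatocyte cluster Sc2, whose median depth was 11862 and 11468 UMIs and whose Prm3 level was 220 and 193 CPM. The level was higher in the spermatogonia cluster Sg, at 820 CPM in WT and 850 CPM in KO (66.2% and 63.9% of cells). In the other spermatocyte cluster, Sc1, it was 851 and 957 CPM (56.9% and 64.7% of cells). Prm1 was found in these clusters as well, at 21336 and 20665 CPM in Sg and 22190 and 23216 CPM in Sc1. The part of spermatid RNA in these levels was not tested. Prm3 thus differed more between Sd9 and Sd10 than between Sd9 and Sd8.

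**Figure D1:**
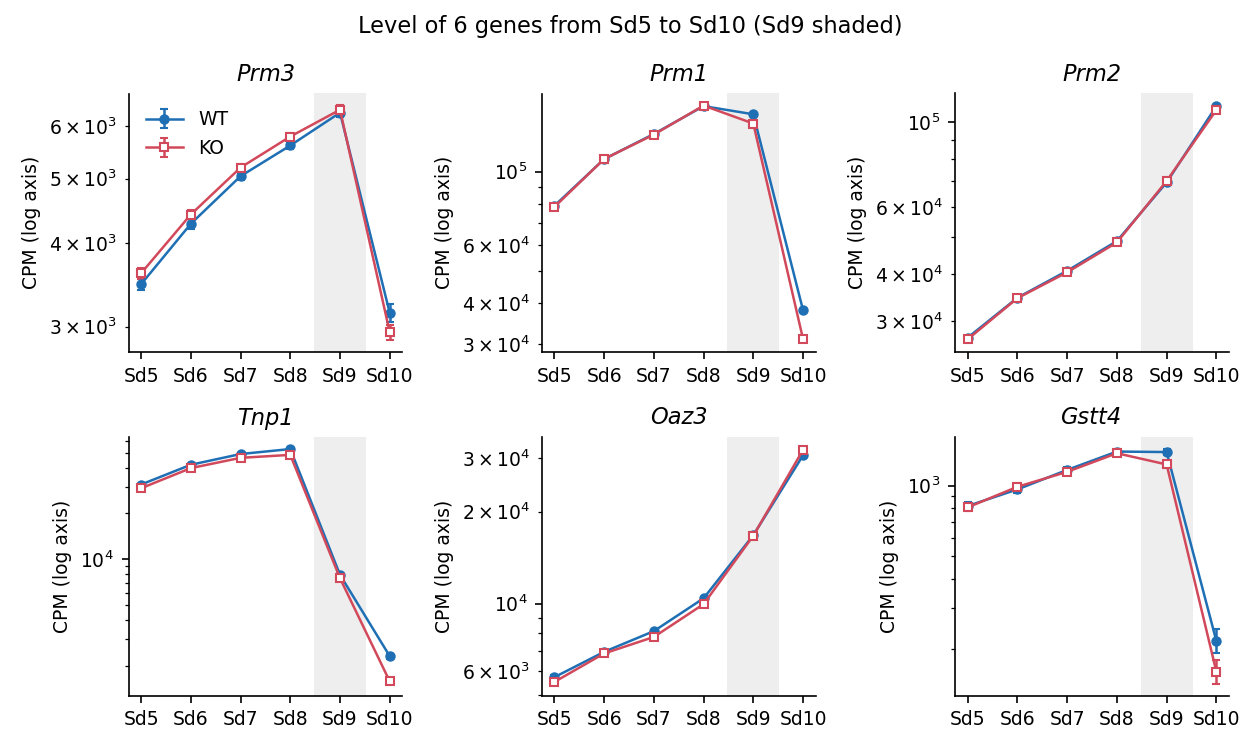
Levels in CPM (log axis) of 6 genes over the clusters Sd5 to Sd10, with Sd9 shaded, for WT (blue circles) and KO (red squares). Bars are exact 95% Poisson intervals for counting error, mostly smaller than the symbols. Prm3 is at its highest in Sd9 (6280 CPM in WT, 6344 CPM in KO), Tnp1 has dropped there from 52859 to 7903 CPM in WT, and Oaz3 and Prm2 are between their Sd8 and Sd10 levels.

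The transition protein mRNAs were far lower in Sd9 than in Sd8, while the 2 protamine mRNAs together took their largest share of the 3 late clusters, by a small margin over Sd8. Tnp1 was at 52859 CPM in Sd8, 7903 CPM in Sd9 and 2313 CPM in Sd10 in WT, and at 48400, 7507 and 1580 CPM in KO. Tnp2 followed with 22535, 5739 and 1454 CPM in WT and 21792, 5434 and 1093 CPM in KO. For both genes Sd9 lay far from both neighbours in each library, with log2 ratios to Sd8 of -2.74 and -2.69 for Tnp1 and of -1.97 and -2.00 for Tnp2. Prm1 and Prm2 together took 21.9% of the UMIs of Sd9 in WT and 21.0% in KO, against 20.7% in Sd8 of both libraries and 14.8% and 13.9% in Sd10. Counted per cell, only Prm2 was higher in Sd9 than in Sd8. Prm1 was at 979.6 UMIs per cell in Sd8 and 928.5 in Sd9 of WT, and at 968.9 and 820.4 in KO. Prm2 was at 302.5 and 432.6 in WT and at 295.6 and 411.4 in KO.

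Prm1 and Prm2 did not move together. Prm1 in Sd9 was close to Sd8 (149173 against 157913 CPM in WT, 139848 against 158505 CPM in KO) and far above Sd10 (38041 and 31101 CPM). Prm2 in Sd9 lay between its neighbours, at 69505 CPM in WT and 70126 CPM in KO, with 48757 and 48361 CPM in Sd8 and 110257 and 107681 CPM in Sd10. The ratio of Prm1 to Prm2 UMIs was 3.24 in Sd8 of WT, 2.15 in Sd9 (2.13 to 2.16) and 0.345 in Sd10. In KO it was 3.28, 1.99 (1.98 to 2.01) and 0.289. From Sd5 to Sd8 the ratio had stayed between 2.90 and 3.28 in both libraries. How well the library captures each of the 2 mRNAs is unknown, so only the change of this ratio is read and not its size.

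Proteins of the condensing nucleus were read from a list of 16 genes, of which 11 have 1 possible row, and which holds the protamines and transition proteins already described. None was higher and 4 were lower than in Sd8 in each library, where 8.58% of all 3181 genes tested in WT were higher and 22.7% lower, and 13% and 23% of 3537 in KO. The 4 were Tnp1, Tnp2, Hmgb4 and Hils1. Hmgb4, an HMG-box protein of the testis, was at 7845 CPM in Sd8 and 1070 CPM in Sd9 of WT and at 8601 and 1199 CPM in KO. Hils1, a linker histone of spermatids, was at 241 CPM in Sd9 of WT and 256 CPM in KO, against 761 and 903 CPM in Sd8. Against Sd10, 7 of the 11 were higher and 2 lower in each library, where 30.4% of 2269 genes in WT and 30.4% of 2500 in KO were higher and 15% and 14.8% lower. The linker histone H1fnt (1096 CPM in Sd9 of WT, 267 in Sd10) and the histone variant H2afb1 (3068 and 1307 CPM) were among the 7. Tssk6, a kinase needed for the exchange of histones, was 1 of the 2 that were lower, at 1904 CPM in Sd9 of WT and 3337 CPM in Sd10.

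Among genes with at least 100 UMIs in the pair of sums, more were lower than higher in Sd9 against Sd8. In WT 273 genes were higher and 723 lower, and in KO 459 and 815. This direction rests on the minimum in KO. Without it the counts were 5204 higher and 5453 lower in WT, and 6254 higher and 5639 lower in KO. Against Sd10, 689 genes were higher and 341 lower in WT, and 761 and 369 in KO. The minimum is set on the pair, and the sums differ in depth. They held 3833785 and 4792579 UMIs in Sd8 of WT and KO, 2620363 and 2551778 in Sd9, and 1252689 and 1762193 in Sd10. Genes high in the deeper cluster pass the minimum more easily, which favours genes lower than in Sd8 and higher than in Sd10. The size of this effect was not tested. Scaled as UMIs per cell in place of CPM, the counts against Sd10 became 579 and 483 in WT and 642 and 490 in KO, since the median of all genes shifted from 0.13 to 0 in WT and from 0.14 to 0.03 in KO on the log2 scale. Of 2216 genes with enough UMIs in all 4 comparisons, 173 were lower than in Sd8 and higher than in Sd10 in both libraries (78.3% of the genes in that class in WT and 68.4% in KO). These took 16.1% of the UMIs in Sd8, 4.66% in Sd9 and 1.64% in Sd10 of WT, and 15.6%, 4.52% and 1.43% in KO. A larger set of 288 genes was within 1.5-fold of Sd8 and higher than in Sd10 in both libraries, with 26.7% of the UMIs in Sd8, 26.2% in Sd9 and 8.52% in Sd10 of WT. So in Sd9 the first set made up a small part of the content. The second was near its Sd8 share, which its choice within 1.5-fold of Sd8 favours. Both shares rest in large part on genes described above. Tnp1 is in the first set, with 52859 CPM in Sd8 of WT. Prm1 is in the second, with 157913 CPM in Sd8, 149173 in Sd9 and 38041 in Sd10 of WT. The ratios to Sd8 and to Sd10 share the Sd9 sum, so these classes are a description.

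**Figure D2:**
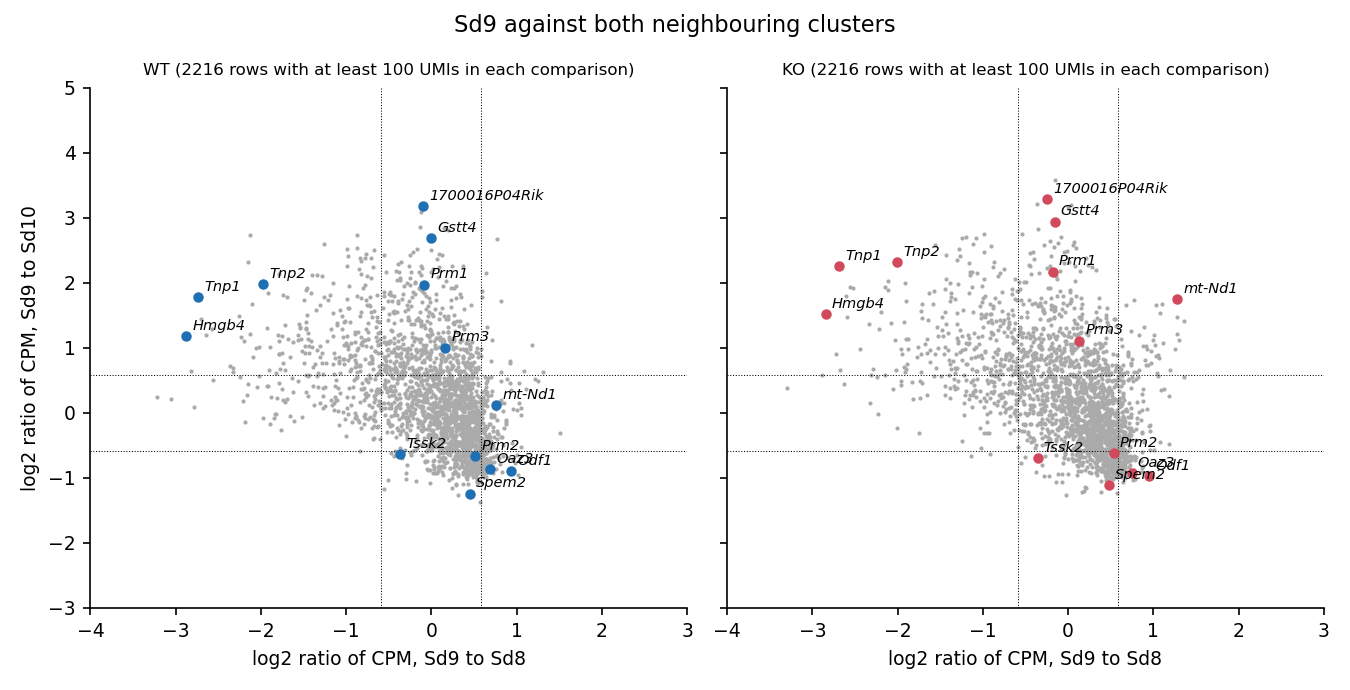
Each point is 1 of 2216 matrix rows with at least 100 UMIs in every comparison, with the log2 ratio of CPM of Sd9 to Sd8 on the horizontal axis and of Sd9 to Sd10 on the vertical axis, in WT (left) and KO (right). Dotted lines mark 1.5-fold and coloured points are named genes. Tnp1, Tnp2 and Hmgb4 lie at the upper left, Prm1, Gstt4 and 1700016P04Rik at the upper middle, and Oaz3, Odf1 and Spem2 at the lower right.

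The 8 named genes that were lowest against Sd8, by the smaller of their drops in the 2 libraries, were Hmgb4, Spcs2, Tnp1, Ppp1r2-ps7, 1700019M22Rik, Tex37, Cypt3 and Cypt1. Spcs2, a subunit of the signal peptidase complex, was at 720 CPM in Sd8 and 102 CPM in Sd9 of WT, and at 673 and 90.9 CPM in KO. For Tex37 the levels were 1732 and 290.0 CPM in WT and 1713 and 299 CPM in KO. The log2 ratios of the 8 genes lay between -2.89 and -2.19 in the 2 libraries. Except for Cypt1 in WT (96.6 CPM in Sd9, 107 CPM in Sd10), all 8 were still higher in Sd9 than in Sd10 in both libraries.

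The 8 genes that were highest against Sd10 had mostly kept the level they had in Sd8. 1700016P04Rik was at 2157 CPM in Sd8, 2014 CPM in Sd9 and 223 CPM in Sd10 of WT, and at 2178, 1840 and 189 CPM in KO. Gstt4, a glutathione S-transferase, was at 1399, 1392 and 217 CPM in WT and 1376, 1232 and 161 CPM in KO. Svip, an inhibitor of a protein degradation pathway of the endoplasmic reticulum, Paqr5, a membrane progestin receptor, the sperm thioredoxin Txndc2 and 1700013G24Rik had the same form, with log2 ratios to Sd8 between -0.45 and 0.17 and to Sd10 between 2.02 and 2.71. Dynll2, a dynein light chain, and Tnp2 were already lower than in Sd8. For Dynll2 the levels were 2871, 1564 and 271 CPM in WT. Further genes of this form stood in other lists: Hspa1l, a heat shock protein of spermatids, was at 521, 477 and 65.5 CPM in WT and 562, 462 and 77.2 CPM in KO, and Rpl37, a ribosomal protein, at 622, 737 and 154 CPM in WT and 605, 700 and 135 CPM in KO.

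Of 2216 genes with enough UMIs in every comparison, 39 were higher than in Sd8 and lower than in Sd10 in both libraries. Another 38 were higher than in Sd8 and within 1.5-fold of Sd10 in both, and 5 were higher than both neighbours in both. The 39 were 57.4% of the genes in that class in WT and 37.1% in KO. For the 38 these shares were 28.6% and 20.3%, and for the 5 they were 25% and 6.67%. Genes higher than in Sd8 whose class against Sd10 differed between the libraries, such as H3f3b, are in none of these counts. Of the 8 named genes highest against Sd8, 5 had a higher level again in Sd10, 1 of them (Spata3) within 1.5-fold. Odf1, a main protein of the outer dense fibres of the tail, was at 438 CPM in Sd8, 837 CPM in Sd9 and 1553 CPM in Sd10 of WT, and at 386, 744 and 1465 CPM in KO. Oaz3, the antizyme of spermatids, which limits polyamine synthesis, was at 10405, 16762 and 30623 CPM in WT and 9959, 16693 and 31904 CPM in KO. Spem1, needed for the removal of cytoplasm from the sperm head, had log2 ratios of 0.77 and 0.74 to Sd8 and of -0.64 and -0.68 to Sd10. Spata3 and 1700008J07Rik also lay between their neighbours in both libraries. The 3 others among the 8 genes were H3f3b, which encodes the histone variant H3.3, mt-Cytb and mt-Nd1, and they took another form. H3f3b was at 83.5, 136 and 92.6 CPM in WT and at 82.8, 169 and 91.9 CPM in KO, so that Sd9 was above both neighbours.

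The 8 genes lowest against Sd10 were Spem2, 4930571K23Rik, Csnk1g2, Azin2, Pebp1, Prkcd, 4933411K16Rik and 1700001L05Rik, at log2 ratios from -1.24 to -0.94. Pebp1, an inhibitor of Raf kinase, was at 2161, 3325 and 6569 CPM in Sd8, Sd9 and Sd10 of WT and at 2182, 3498 and 6790 CPM in KO. Azin2, an antizyme inhibitor and thus a counterpart of Oaz3, was at 133, 180 and 386 CPM in WT and 121, 165 and 326 CPM in KO. All 8 were above their Sd8 level in both libraries, by 0.43 to 0.68 on the log2 scale.

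A gene that peaked in Sd9 was rare. Only 20 of 2269 genes in WT (0.881%) and 75 of 2496 in KO (3%) were past 1.5-fold above both Sd8 and Sd10, and 5 of 2216 (0.226%) were so in both libraries. The 10 named peak genes were past 1.5-fold in all 4 ratios, but only Hsp90ab1, Sycp3, mt-Co1 and mt-Nd4 had 100 UMIs in each pair of sums, which the count of 5 asks for. They had few UMIs in Sd9, from 40 for Uqcrb to 178 for mt-Nd4 in WT. They were Psma8, Ptma, Hmgb2, Hmgb1, mt-Nd4, mt-Co1, Uqcrb, Hsp90ab1, Uchl3 and Sycp3. Psma8, a proteasome subunit of meiotic and later germ cells, was at 6.00, 21.0 and 5.59 CPM in Sd8, Sd9 and Sd10 of WT and at 11.1, 21.2 and 9.65 CPM in KO. Sycp3, a protein of the synaptonemal complex that holds paired chromosomes in meiosis, was at 18.8, 40.1 and 25.6 CPM in WT and 19.6, 47.8 and 20.4 CPM in KO. The cell with most UMIs of the gene held 46.7% of the 105 Sycp3 UMIs of WT and 9.02% of the 122 of KO, and over the 10 genes it held 9.09% to 46.7% in WT and 5.63% to 37.1% in KO. When the deepest 5% of cells were left out, the log2 ratio of Sycp3 to Sd10 was -0.35 in WT, against 0.64 with them, and 1 gene in place of 5 peaked in both libraries. In cells thinned to 3000 UMIs the ratio of Uchl3 to Sd10 in KO was -0.01 against 0.65, 19 genes in place of 75 peaked in KO, and 0 in both libraries. By the mean of single-cell CPM and with a 2-fold limit the count in both libraries was 0 as well. The summed level of 11 spermatocyte markers, 1 of which is Sycp3 itself, moved in the same way. It was at 205, 261 and 216 CPM in WT and 218, 331 and 219 CPM in KO, with none of the 11 at 0 in Sd9. The sum of 6 spermatogonia markers was also highest in Sd9, at 68.9, 95.4 and 75.8 CPM in WT and 67.8, 110.9 and 82.3 CPM in KO. The part of spermatocyte or spermatogonia RNA or of mixed cells in the peak genes was not tested, and no doublet caller was run.

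The reverse form, a trough in Sd9, was also rare, and it was shallow in Spata4, Fam46c and Tssk2. Past 1.5-fold below both Sd8 and Sd10 were 2 of 2269 genes in WT, 2 of 2496 in KO and 1 of 2216 in both libraries. Among the 5 named genes Spata4 was at 544, 360 and 477 CPM in WT and 605, 401 and 575 CPM in KO, and Fam46c, a poly(A) polymerase, at 425, 313 and 494 CPM in WT and 355, 274 and 518 CPM in KO. Tssk2, a kinase of the testis, was at 897, 694 and 1078 CPM in WT and 780, 608 and 986 CPM in KO. These 3 lay below both neighbours in both libraries, outside the intervals of all 4 ratios. The other two, Ankrd61 and Mfsd13b, had only 49 to 75 UMIs in Sd9 of each library.

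The lists of sperm structures and functions were read next, each from its members with 1 possible row and enough UMIs. Each count stands against the share over all genes, which against Sd8 was 8.58% higher and 22.7% lower in WT and 13% and 23% in KO, and against Sd10 30.4% higher and 15% lower in WT and 30.4% and 14.8% in KO, and in short lists 1 or 2 genes move a share widely. Genes of sperm glycolysis, which fuels the tail, were mostly between Sd8 and Sd10. Of 11 tested, 5 in WT and 6 in KO were higher than in Sd8 and 2 and 1 lower, and 6 in each library were lower than in Sd10 (15% of all genes in WT, 14.8% in KO) and 1 higher (30.4% in each). The list's median log2 ratio was 0.51 and 0.59 to Sd8, where the median of all genes was 0.04 and 0.06, and -0.74 in both libraries to Sd10, where it was 0.13 and 0.14. Gapdhs, the glyceraldehyde-3-phosphate dehydrogenase of sperm, was at 2769, 4273 and 7117 CPM in WT and 2511, 4051 and 6748 CPM in KO. Ldhc, the lactate dehydrogenase of the testis, went the other way, at 1223, 755 and 711 CPM in WT and 1356, 841 and 620 CPM in KO. The summed level of the list was 8457, 11598 and 17087 CPM in WT.

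The outer dense fibres and the fibrous sheath stiffen the sperm tail. Of 17 tested genes of this list, 3 in WT and 4 in KO were higher than in Sd8 and 4 in each were lower, the latter about the share over all genes. Akap4, the main anchoring protein of the sheath, was at 1494, 2040 and 2419 CPM in WT and 1814, 2266 and 2728 CPM in KO. Spata19 and Ropn1 were among those lower, with log2 ratios to Sd8 of -1.54 and -1.72 for Spata19 and of -1.78 and -1.56 for Ropn1. Odf3b differed from both, at 151, 138 and 16 CPM in WT and 140, 125 and 10.2 CPM in KO. The list held members of all 3 forms and its median log2 ratio of 0.37 and 0.32 to Sd8 hides that. In the list of the mitochondrial sheath of the midpiece, 2 of 18 genes in WT and 8 in KO were higher than in Sd8 and 3 in each lower. Smcp, a cysteine-rich protein of that sheath, was at 15075, 21942 and 40140 CPM in WT and 15219, 22751 and 42835 CPM in KO.

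Of the genes of ubiquitin transfer and cytoplasm removal, 2 of 23 in WT and 6 of 24 in KO were higher than in Sd8 and 5 and 8 lower, in WT the shares over all genes. Oaz3 and Spem1 were counted here, and Ube2n, a ubiquitin-conjugating enzyme, was at 1238, 1855 and 3296 CPM in WT. Asb17, an adaptor of ubiquitin ligases, was lower, at 892, 402 and 239 CPM in WT and 776, 332 and 222 CPM in KO. The manchette, a microtubule skirt that shapes the head, had 10 of 30 list genes lower than in Sd8 in WT and 10 of 31 in KO, against 2 and 5 higher. Meig1, needed to build the flagellum from the manchette, was at 2847, 670 and 370 CPM in WT and 2698, 728 and 432 CPM in KO. Spata6, a protein of the head-tail junction, was at 2045, 2668 and 1718 CPM in WT and 2041, 2662 and 1762 CPM in KO, highest in Sd9 of the 3 clusters but within 1.5-fold of Sd8. In the acrosome list, 1 of 12 genes in WT and 4 of 18 in KO were higher than in Sd8 and 5 in each were lower, and the share of higher genes in WT was that over all genes (8.58%). Izumo2, Izumo3 and Iqcf1 were lower in both libraries, with log2 ratios for Izumo3 of -2.13 and -2.34. The list as a whole had no shared direction. Its median log2 ratio to Sd8 was -0.14 in WT, with 6 of 12 genes above 0, and 0.40 in KO, with 12 of 18 above 0.

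Genes of mRNA storage and of heat shock were read in the same way. Of the storage list, 0 of 15 in WT and 2 of 16 in KO were higher than in Sd8 and 4 and 2 lower. Ybx2, a protein that binds stored mRNA in germ cells, was at 986, 1360 and 866 CPM in WT and 973, 1318 and 827 CPM in KO, and the cap-binding protein Eif4e at 1274, 1772 and 2299 CPM in WT. Of the heat shock list, 5 of 22 in WT and 8 in KO were higher than in Sd8 and 5 and 4 lower. Dnajb3 was at 3534, 4309 and 1115 CPM in WT and 3599, 4266 and 1779 CPM in KO, while Dnajb8, of the same family, was at 2053, 3133 and 4997 CPM in WT. Of the axoneme list, 1 of 29 and 6 of 32 were higher than in Sd8 and 6 and 3 lower, where 8.58% and 13% of all genes were higher and 22.7% and 23% lower. Of the list on calcium channels and motility signals, 2 of 15 and 2 of 16 were higher and 4 and 3 lower. Of the testis-specific serine kinases, 0 of 8 in WT and 1 of 8 in KO were higher than in Sd8 and 1 in each lower, and 4 of 7 in each library were lower than in Sd10, where 15% of all genes in WT and 14.8% in KO were. Tssk3 was at 775, 1111 and 2201 CPM in WT and 857, 1319 and 2482 CPM in KO. Of the genes of round spermatid transcription, 0 of 9 in WT and 2 of 11 in KO were higher than in Sd8 and 4 in each lower, with Chd5, a chromatin remodeller, at 269, 121 and 53.5 CPM in WT. The list of the CCR4-NOT complex, which shortens poly(A) tails, and of other deadenylation genes could be read against Sd8 in only 2 genes, Btg1 and Cnot4, too few to describe as a list. In a list of late spermatid markers that the study took from these samples, 6 of 16 in WT and 6 of 17 in KO were higher than in Sd8 and 6 in each lower, which is not independent of the clusters.

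Messengers of cytosolic ribosomal proteins were compared with both neighbours. Against Sd8, 9 of 69 in WT and 10 of 70 in KO were higher and 15 and 16 lower, close to the shares over all genes (8.58% and 13% higher, 22.7% and 23% lower). Against Sd10, where 30.4% of all genes were higher in each library, 32 of 61 in WT and 45 of 63 in KO were higher and 2 and 1 lower, with median log2 ratios of 0.72 and 1.06. The exception with most UMIs was Rpl41, at 2493, 3843 and 6898 CPM in WT and 2243, 3534 and 6513 CPM in KO. The summed level of the list, Rpl41 included, was 24267, 25249 and 22896 CPM in WT and 23230, 24586 and 20144 CPM in KO. Of the proteasome subunits, 1 of 6 in WT and 1 of 8 in KO were higher than in Sd8 and 1 and 2 lower. Psma6, with most of the list's UMIs, was level at 1468, 1647 and 1579 CPM in WT.

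Mitochondrially encoded RNAs were higher in Sd9 than in Sd8 in both libraries. Of 30 genes, 8 had enough UMIs, of which 6 in WT and 7 in KO were higher, where 8.58% and 13% of all genes were, and 0 lower, with median log2 ratios of 0.91 and 1.09. The rRNA mt-Rnr2 was at 2697, 3904 and 4716 CPM in Sd8, Sd9 and Sd10 of WT and at 3912, 6101 and 6291 CPM in KO. Against Sd10, 2 of 8 genes were higher in WT (median 0.42) and 6 of 8 in KO (median 1.44), where 30.4% of all genes were higher in each library, so that the count in WT was about that share. mt-Nd1 was at 134 CPM in Sd9 and 124 CPM in Sd10 of WT, and at 132 and 39.2 CPM in KO.

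The markers of cells other than germ cells that could be read were low in Sd9, but most could not be read. Only 1 of 14 Sertoli, 2 of 9 Leydig, 2 of 12 peritubular and endothelial and 4 of 10 macrophage symbols had 1 possible row. The 2 Leydig cell markers read summed to 5.72 CPM in WT and 10.6 CPM in KO, those of peritubular and endothelial cells to 4.2 and 2.74 CPM, and the 1 Sertoli marker, Ctsl, to 22.5 and 9.80 CPM. The macrophage list summed to 421 and 386 CPM, nearly all from Aif1 (385 and 354 CPM), which was at 1244 and 1330 CPM in Sd8, while 0 of the 4 macrophage genes in WT and 1 in KO were at 0. The 3 haemoglobin genes summed to 542 CPM in Sd9 of WT and 10.2 CPM in KO. In WT, 1374 of their 1420 UMIs were in 1 cell of 4029 UMIs, and without it the sum was 17.6 CPM.

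Position within Sd9 was then measured for each cell. The position score is the log2 ratio of the UMIs of 50 genes high in Sd10 to those of 50 genes high in Sd8, with 1 UMI added to both sums, and the genes were chosen without Sd9 cells. Sd8 cells had a median score of -0.94 in WT and -0.91 in KO, and Sd10 cells of 5.59 and 5.43. Sd9 cells had a median of 2.20 in WT, with the middle 50% between 1.18 and 3.35, and of 2.41 in KO, between 1.17 and 3.51. They were spread more widely than Sd8 cells, whose middle 50% ran from -1.11 to -0.64 in WT. Few reached into Sd8: 6 of 421 WT cells and 5 of 435 KO cells were below the 95th percentile of Sd8. More reached into Sd10, as 175 WT cells (41.6%) and 122 KO cells (28.1%) were above the 5th percentile of Sd10, which stood at 2.54 in WT and 3.4 in KO. Those limits lie in the low tail of Sd10, whose middle 50% began at 4.94 in WT and 4.90 in KO. The 95th percentile of Sd9 was below that, at 4.59 in WT and 4.67 in KO. The cluster thus covers a range between its neighbours that overlaps with the low tail of Sd10.

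**Figure D3:**
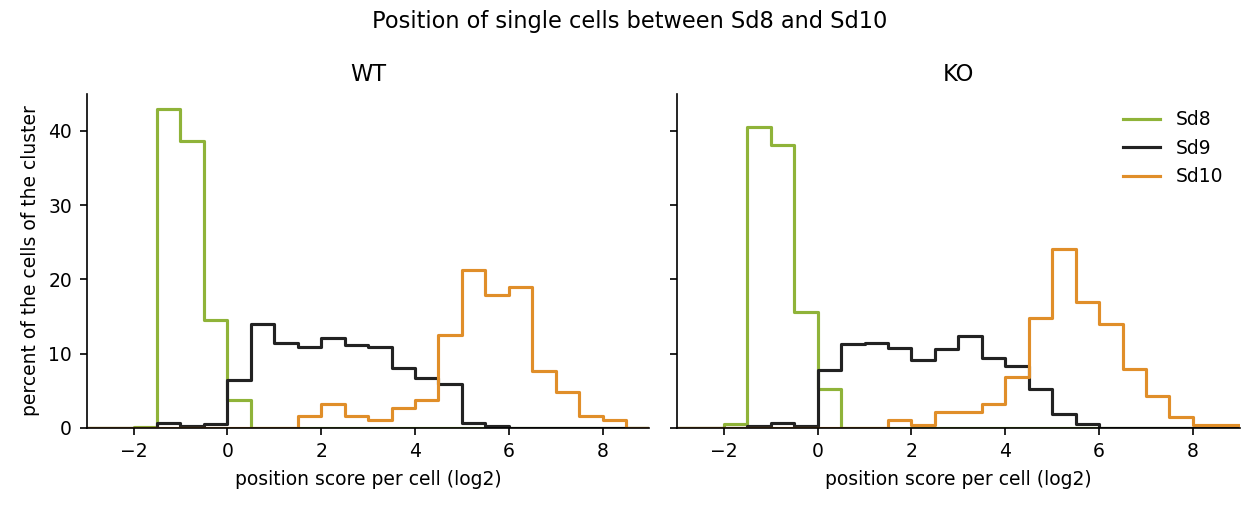
Distribution of the position score of single cells (log2, bins of 0.5) as percent of the cells of each cluster, for Sd8 (green), Sd9 (black) and Sd10 (orange), in WT (left) and KO (right). Sd9 is broad, with medians of 2.20 in WT and 2.41 in KO, and overlaps with Sd10 more than with Sd8.

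To see the course of Prm3 within Sd9, the cells were divided at the quartiles of the score over both libraries, which gave 4 position bins with 99 to 115 cells of each library. Of the 856 cells, 116 lay within 0.1 of a boundary, so that the bins are ranges and not types. The median depth per bin was 4685 to 5154 UMIs. Prm3 was almost level, at 6236, 6497, 6430 and 5951 CPM from the first bin to the last in WT and at 6184, 6477, 6498 and 6242 CPM in KO. Its highest bin was thus 1 of the middle ones in both libraries. Prm1, which is not in the score, was at 176847, 169040, 150355 and 97383 CPM in WT and 171437, 165782, 140246 and 84796 CPM in KO, and Prm2, which is not in it either, at 60537, 65890, 71171 and 81293 CPM in WT and 57763, 66512, 71607 and 84379 CPM in KO. The ratio of Prm1 to Prm2 UMIs was 2.92, 2.57, 2.11 and 1.2 in WT and 2.97, 2.49, 1.96 and 1.0 in KO. The first bin was near Sd8 and the last was still far from Sd10. Prm1 therefore stayed in the first bins and was lower mostly in the last, whereas Prm2 was higher in each bin than in the one before it.

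**Figure D4:**
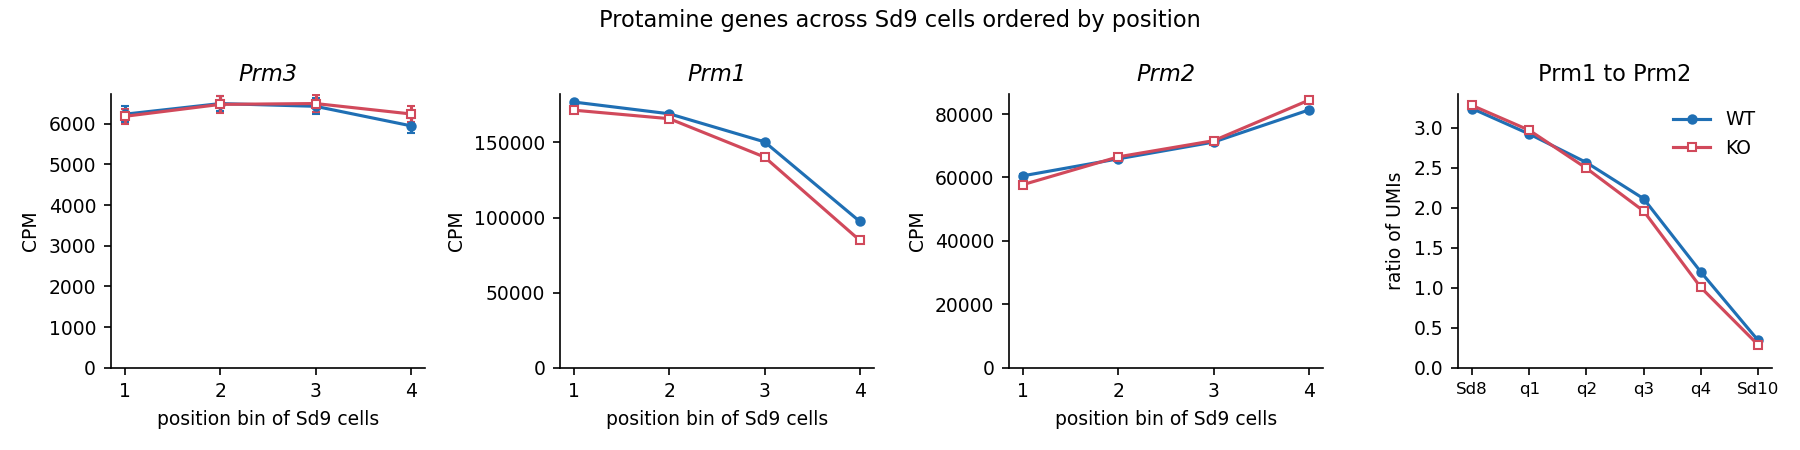
The first 3 panels give CPM of Prm3, Prm1 and Prm2 in the bins of Sd9 cells by position score, from nearest to Sd8 (1) to nearest to Sd10 (4), with exact 95% Poisson intervals. The panel on the right gives the ratio of Prm1 to Prm2 UMIs in Sd8, in the bins of Sd9 (q1 to q4) and in Sd10. WT is blue and KO red, and Prm3 stays between 5951 and 6498 CPM while the ratio goes from 2.92 to 1.2 in WT and from 2.97 to 1.0 in KO.

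Other genes outside the score showed the same kinds of course. Gstt4 was at 1484, 1524, 1540 and 1013 CPM over the bins in WT and at 1559, 1427, 1309 and 654 CPM in KO. Paqr5 was at 1195, 1291, 1258 and 786 CPM in WT and Svip at 1127, 1189, 998 and 772 CPM. These mRNAs, which were near their Sd8 level over the whole of Sd9, were lowest in its last bin. Spata3 was at 2890, 3131, 3563 and 4069 CPM in WT, Tssk6 at 1621, 1780, 2018 and 2227 CPM, Gapdhs at 3607, 4008, 4330 and 5205 CPM and Gsg1 at 6009, 6900, 7300 and 8685 CPM. H2afb1 stayed level like Prm3, between 2990 and 3233 CPM in WT and between 2751 and 3074 CPM in KO. Tnp1 and Tnp2 are part of the score, so that their decline over the bins, from 20980 to 1027 CPM for Tnp1 in WT, is set by the division. The median mitochondrial share was 0.304%, 0.400%, 0.410% and 0.488% over the bins in WT and 0.462%, 0.553%, 0.703% and 0.775% in KO, and it too was not used in the score.

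Transcript length and GC content were compared between the classes as a description. In the GENCODE vM21 annotation of GRCm38, with the longest coding transcript standing for each gene, the median length of all genes read in all 4 comparisons was 2187 bases (86.4% of the named genes had a value). It was 1726 bases for genes lower than in Sd8 and higher than in Sd10 in both libraries, 1764 bases for those within 1.5-fold of Sd8 and higher than in Sd10, and 2549 bases for those within 1.5-fold of both. Genes higher than in Sd8 and lower than in Sd10 had a median of 1549 bases over 27 genes. Above the median of all genes lay those within 1.5-fold of Sd8 and lower than in Sd10 (2338 bases, 110 genes) and those lower than in Sd8 and within 1.5-fold of Sd10 (2416 bases, 61 genes). The middle 50% of the classes overlapped, from 958 to 3078 bases for the first and from 1425 to 4096 bases for the genes within 1.5-fold of both. The GC content had a median of 49.7% over all genes and of 49.1% in the class lower than in Sd8 and higher than in Sd10. It was higher in the classes that were higher than in Sd8 and lower than in Sd10 (54.9%), higher than in Sd8 and within 1.5-fold of Sd10 (54.0%), and within 1.5-fold of Sd8 and lower than in Sd10 (53.0%), and 47.9% in the class lower than in Sd8 and within 1.5-fold of Sd10.

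KO and WT were compared within Sd9 to ask whether the deletion of Tex13a changed mRNAs of this stage. With 1 library for each genotype, the difference has no replicate check. The log2 ratio of KO to WT had a median of 0.03 over 2800 genes and its middle 50% lay between -0.12 and 0.22. Past 1.5-fold, 154 genes were higher in KO (5.5%) and 36 lower (1.29%). As UMIs per cell the counts were 94 higher and 60 lower, and with the ratios centred on their median 133 and 40. The protamine and transition protein mRNAs and Oaz3 were close in the 2 libraries. The ratio was 0.01 for Prm3 (-0.02 to 0.05), -0.09 for Prm1, 0.01 for Prm2, -0.07 for Tnp1, -0.08 for Tnp2 and -0.01 for Oaz3. None of the tested genes of the lists of chromatin condensation (11), outer dense fibre and fibrous sheath (16), sperm glycolysis (11), manchette (28) and serine kinases (8) was past 1.5-fold in either direction. In other lists some genes were higher in KO, where 5.5% of all genes were. These were 4 of 14 of mRNA storage (median log2 ratio 0.32), 3 of 12 of the acrosome (0.34), 3 of 26 of the axoneme (0.33, with 1 lower), 3 of 18 of the midpiece (0.06), 2 of 8 of round spermatid transcription (-0.02) and 2 of 15 of calcium channels and motility signals, beside a median of 0.03 over all genes. These list counts are in CPM. As UMIs per cell the medians were 0.23 for mRNA storage, 0.26 for the acrosome and 0.25 for the axoneme, beside -0.05 over all genes. The lists of ubiquitin transfer (22 tested), heat shock (21), cytosolic ribosomal proteins (69) and mitochondrially encoded RNAs (8) had 1 higher gene each, the proteasome list (7) none, and the list of CCR4-NOT and deadenylation had 1 gene tested. This was Btg1, an antiproliferative factor that binds the deadenylase and is not a subunit of the complex, with a log2 ratio of -0.78, while no Cnot gene with 1 possible row had 100 UMIs. The spermatocyte markers moved in the same direction, with a sum of 261 CPM in WT and 331 CPM in KO over 11 genes, none of them at 0. Of the 6 tested, 1 was past 1.5-fold and all 6 had a ratio above 0, with a median of 0.28, and the part of spermatocyte RNA in these differences was not tested. Pabpc1, a poly(A)-binding protein, was at 317 CPM in WT and 491 CPM in KO (log2 ratio 0.63, 0.50 to 0.76). As UMIs per cell this ratio was 0.54, which is within 1.5-fold. Pabpc1 and Btg1 were named here after their values were seen.

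A few genes stood apart. 1700030C10Rik, a transcript without a known function, had 0 UMIs in the 421 WT cells of Sd9, which allows a share of up to 0.713% of cells with a UMI, and 168 UMIs in 126 of 435 KO cells (29.0%). Its level of 65.8 CPM in KO was at least 57.5-fold higher, taking 3 UMIs as the floor of the WT sum. The difference was not particular to Sd9, as over all clusters this gene had 82 UMIs in 74 of 5170 WT cells and 2579 UMIs in 1872 of 7238 KO cells. Fyttd1, an adaptor of mRNA export, had 32 UMIs in WT and 111 in KO, a log2 ratio of 1.82 (1.25 to 2.45). Its level was 14.1 CPM in Sd8, 12.2 CPM in Sd9 and 10.4 CPM in Sd10 of WT, and 16.1, 43.5 and 29.5 CPM in KO. Spesp1, a protein of the equatorial segment of the sperm head, Dcaf8, a receptor of a ubiquitin ligase, and Lrrc34 had ratios of 1.36 (0.75 to 2.04), 1.35 (0.77 to 1.98) and 1.21 (0.65 to 1.82), from 30 to 37 UMIs in WT and 76 to 85 in KO. On cells matched on position, 381 in each library with a median score of 2.25 in both, the ratio was 1.71 for Fyttd1, 1.22 for Spesp1, 1.35 for Dcaf8 and 0.93 for Lrrc34.

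Lower in KO were the haemoglobin genes Hba-a2, Hba-a1 and Hbb-bs, whose UMIs in WT came almost all from the 1 cell described above, and Gm9970 and Itsn2. Gm9970 was at 69.8 CPM in WT and 38.4 CPM in KO (log2 ratio -0.86, -1.23 to -0.50). Itsn2, a scaffold protein of endocytosis, was at 33.6 and 19.2 CPM (-0.80, -1.34 to -0.29). Among abundant transcripts, mt-Rnr2 was higher in KO (3904 and 6101 CPM, log2 ratio 0.64), as was the mitochondrial share of UMIs in every cluster, and the selenoprotein Gpx4 was lower within 1.5-fold (1806 and 1334 CPM, -0.44). Gpx4 was also lower in KO in Sd8 (1556 and 1131 CPM) and in Sd10 (1636 and 1117 CPM). The 3 rows with the lowest ratios of all cannot be tied to a single symbol and are not named, and the row without KO UMIs described at the start is 1 of them.

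**Figure D5:**
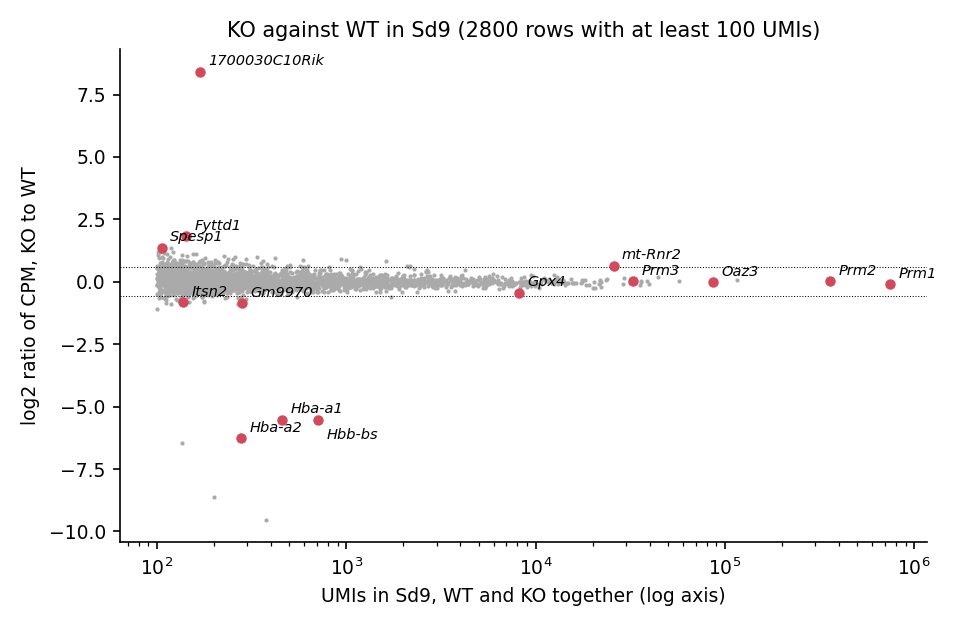
Log2 ratio of CPM of KO to WT in Sd9 against the UMIs of both libraries together (log axis) for 2800 matrix rows with at least 100 UMIs, with dotted lines at 1.5-fold and named genes in red. Abundant genes such as Prm1, Prm2, Prm3 and Oaz3 lie at or near 0, whereas 1700030C10Rik lies at the top and 3 haemoglobin genes near the bottom.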

How the data were processed

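Cells of 1 WT and 1 Tex13a KO library were captured with the Singleron GEXSCOPE kit. According to the methods and the submitters' processing notes, reads were handled with FastQC 0.11.7, fastp 1, STAR 2.5.3a (mm10) and featureCounts 1.6.2, and cells were clustered with Seurat 3.2.3. The authors deposited raw UMI counts for 26758 rows and 12408 cells, a list of 25065 symbols, and a cell table with the cluster of each cell and its mitochondrial percent, as computed by the authors. Per cell it also holds totals that the authors corrected with sctransform, a score that was not used.

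The symbol list is shorter than the matrix and does not pair with its rows by line number. The rows of 30 mitochondrial symbols were fixed through the deposited percent, which they gave exactly for 12408 of 12408 cells, and the rest were placed between these in order. A gene was named only where 1 row was possible (5476 symbols, 86.9% of UMIs), leaving aside rows seen in fewer than 5 cells. Counts over all genes use every row.

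For each cluster and library the UMIs of its cells were added up and expressed as CPM. Log2 ratios carry a prior of 1 UMI. Intervals are exact at 95% (Poisson for levels, conditional binomial for ratios, Clopper-Pearson for shares of cells) and reflect counting error alone. No count model was fitted, since each genotype has 1 library and cells are not replicates. Named genes are the 8 with the largest smaller-of-both-libraries ratio in each direction against Sd8 and Sd10 (at least 500 UMIs in both), 10 peak, 5 trough and 5 KO genes in each direction, and 4 per list by UMIs, with further list members chosen after their values were seen. The members and lists were chosen with earlier results of these data known. Doublets were not called. Python 3.11.15, numpy 2.4.6, pandas 2.3.3, scipy 1.17.1 and matplotlib 3.10.9 were used, and the ratios were tested on simulated data. Alternatives changed the scaling, the filter, the limit, the depth, the cells used and the naming rule.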

Additional observations from a re-analysis of the deposited data

Results flagged for a closer look

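These results stand out because the ratio of Sd9 to a neighbouring cluster had opposite signs in the 2 libraries. The difference between the libraries was not tested, as there is 1 library of each genotype. For Spesp1 the log2 ratio of Sd9 to Sd10 was -0.61 in WT and 1.0 in KO, from 30 and 76 UMIs in Sd9. For 1700030C10Rik it was -3.36 in WT and 1.6 in KO, but the WT value rests on 0 UMIs in Sd9 and 3 in Sd10 and is no bound. The haemoglobin genes had log2 ratios of Sd9 to Sd8 of 5.95 in WT and -5.98 in KO for Hba-a1, of 4.79 and -7.01 for Hba-a2 and of 6.34 and -6.09 for Hbb-bs, and Hba-a2 had 4.39 and -1.58 against Sd10. Of the haemoglobin UMIs, 1374 of 1420 in Sd9 of WT and 3702 of 3755 in Sd8 of KO were in 1 cell each.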

How the results depend on the processing

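No paired analysis was possible because each genotype is 1 library. Genes higher and lower in Sd9 than in Sd8 were 273 and 723 in WT and 459 and 815 in KO, and higher and lower than in Sd10 689 and 341 in WT and 761 and 369 in KO. Without a filter on low counts the Sd8 counts were 5204 and 5453 in WT and 6254 and 5639 in KO, where more genes were then higher than lower, and the Sd10 counts 7559 and 3814 in WT and 7752 and 3084 in KO. With a 2-fold limit they were 24 and 404, 59 and 473, 382 and 21, and 407 and 24. With at least 300 UMIs they were 111 and 391, 169 and 455, and 332 and 216, with 352 higher than Sd10 in KO. With at least 50 UMIs, 513 in WT and 785 in KO were higher than Sd8 and 1164 in KO higher than Sd10. In cells thinned to 3000 UMIs, 261 in KO were higher than Sd8, and 437 in WT and 468 in KO higher than Sd10. Only over symbols with 1 row and no rule on rare rows, the counts were 122 and 319, 240 and 341, 369 and 144, and 447 and 156.

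KO against WT gave 154 higher and 36 lower genes in Sd9, against 94 and 60 as UMIs per cell, 375 and 116 with at least 50 UMIs, 25 and 5 with at least 300, 5102 and 4459 without a filter, 17 and 7 at 2-fold, 94 and 10 over symbols with 1 row and no rule, and 67 higher in thinned cells. Genes that peaked in Sd9 in WT (20), in KO (75) and in both (5) were 61, 193 and 16 with at least 50 UMIs, 4, 15 and 0 with at least 300, 3199, 4050 and 785 without a filter, and 6, 17 and 0 at 2-fold. In KO they were 49 per cell, 47 centred, 19 thinned and 44 without the 5% of cells with most UMIs, and in both libraries 3, 3, 0 and 1, and 0 by the mean of single-cell CPM. The count of peaks shared by both libraries thus depended on each of these settings.

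The log2 ratio of Prm3 to Sd8 (0.16 in WT, 0.13 in KO) was 0.12 in WT and 0.07 in KO when centred and 0.07 in KO per cell. Its ratio to Sd10 (1.0 and 1.11) was 0.87 and 1.0 per cell, 0.87 and 0.97 centred, 1.21 and 1.23 by the mean of single-cell CPM, 1.2 and 1.25 thinned, and 1.19 and 1.22 without the 5% of cells with most UMIs, always above 0. Sd9 was 11% of the Sd2 to Sd10 cells in WT and 8.73% in KO. The ratio of Sycp3 to Sd10 in WT (0.64) reversed to -0.33 by the mean of single-cell CPM, -0.19 thinned and -0.35 without the 5% of cells with most UMIs, and that of Uchl3 in KO (0.65) to -0.01 thinned, and the cause was not tested. For the main results, 124 alternative values moved little and 86 moved more. For single genes, 963 moved little, 115 moved more and 4 reversed. Genes with few UMIs are limited by depth.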
